A study of Mus musculus with 6 samples.

Results

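Transcripts of 10 genes of the mTORC1 and S6 kinase pathway were followed in RNA precipitated with phosphorylated ribosomal protein S6 from the vomeronasal organ, the pheromone-sensing organ of the nose. The genes were chosen by name for their place in the pathway: the kinase Mtor and its partner Rptor, the activator Rheb, the inhibitors Tsc1 and Tsc2, the S6 kinases Rps6kb1 and Rps6kb2, and the RSK kinases Rps6ka1, Rps6ka2 and Rps6ka3. The choice was made with earlier results of these data known. All 10 were among the 38561 genes of the count table. All 10 were abundant enough to be tested, as were 15498 genes in all. The 6 libraries came from male CD-1 mice, an outbred stock, with 3 libraries after pup exposure and 3 after control exposure. The labels give no genotype or age, and they do not say what the control exposure was or how long exposure lasted. Nor do they state that replicates are separate animals, so the p-values cover only library-to-library spread, which could be technical.

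mTORC1 is a kinase complex, built around MTOR and RPTOR, that raises protein synthesis when nutrients and growth signals are available. The small GTPase RHEB switches it on at the lysosome, and the TSC1 and TSC2 proteins hold RHEB off. Active mTORC1 phosphorylates the S6 kinases, which phosphorylate ribosomal protein S6; the RSK kinases, which lie downstream of ERK, phosphorylate S6 as well. In many neurons S6 phosphorylation increases with recent activity, and an antibody to the phosphorylated protein then brings down RNA bound to the ribosomes of such cells. The 10 genes thus encode parts of the machinery that makes the mark used for the precipitation. Their transcripts were counted here, while their proteins, kinase activity and S6 phosphorylation itself were not measured.

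Libraries held 18199476 to 20871266 counts after pup exposure and 10590716 to 11240065 after control exposure. TMM scaling factors, which correct library totals for a few very abundant genes, lay between 0.605 in control exposure replicate 3 and 1.39 in pup exposure replicate 2. Omp, the marker of mature olfactory and vomeronasal neurons, was present at 664 to 831 CPM, that is counts scaled to a common library total, after pup exposure and 768 to 922 CPM after control exposure. Levels are given below as CPM scaled by TMM. Because each library is a bulk precipitate, fewer cells of a type and less RNA per cell cannot be told apart, and no unprecipitated input library was analysed here.

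None of the 10 genes differed between pup and control exposure after correction for all genes tested (edgeR's quasi-likelihood test, Benjamini-Hochberg adjusted p under 0.05), where the share over all tested genes was 0.0% (0 of 15498). At an unadjusted p under 0.05, 1 of the 10, Rps6ka3, was higher after pup exposure and 1, Tsc2, was lower, against 6.31% higher (978 genes) and 4.67% lower (723 genes) over all genes. With library totals only, that balance over all genes was 1336 higher and 168 lower. Other tools passed some genes of the whole table, and none of these was among the 10. DESeq2 passed 127 genes, 0.531% of 23900, but 11599 of those 23900 genes were given no adjusted p. With limma-voom 8 genes passed, 0.0516% of 15498. Groups did not overlap for 1 gene that was higher after pup exposure (Rps6ka3) and 2 that were lower (Tsc2 and Rps6kb2), against 10.1% and 9.6% of all tested genes. The median log2 fold change, pup exposure over control exposure, was -0.02 for the 10 genes and 0.03 for all tested genes. With 5 positive and 5 negative values, the genes shared no direction.

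**Figure D1:**
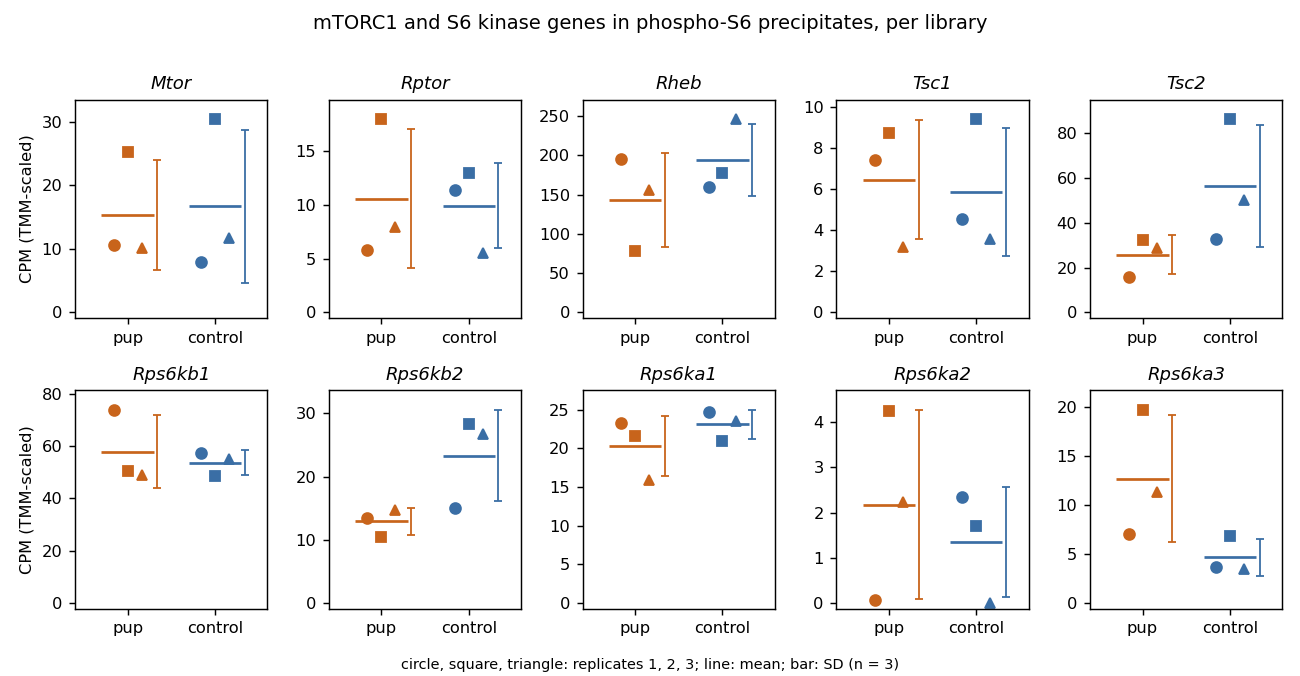
TMM-scaled CPM of each of the 10 genes (vertical axes, linear, one scale per gene) in the 3 pup exposure and 3 control exposure libraries; points are libraries, lines are means and bars are SD (n = 3 each). The pup exposure libraries lie at 15.8 to 32.4 CPM for Tsc2 and 7.02 to 19.8 CPM for Rps6ka3, against 32.6 to 86.0 CPM and 3.44 to 6.81 CPM in the control exposure libraries, and the groups overlap for all but these 2 genes and Rps6kb2.

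Mtor, on chromosome 4 (chr4:148448611-148557683, plus strand, GRCm38), encodes the catalytic kinase of the complex. Its level was 10.6, 25.3 and 10.2 CPM in pup exposure replicates 1, 2 and 3, against 8.0, 30.4 and 11.7 CPM in control exposure replicates 1, 2 and 3. Replicate 2 was the highest library in each group, and the groups overlapped throughout. Means were 15.4 ± 8.63 CPM after pup exposure and 16.7 ± 12 CPM after control exposure (SD, n = 3 each). The log2 fold change was -0.12 (SE 0.565, 95% interval -1.35 to 1.11; edgeR adjusted p = 0.947). Its sign depended on single libraries: the value was 0.66 without control exposure replicate 2, and 0.09 or 0.11 when replicate 1 or replicate 3 of pup exposure was left out.

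Rptor (chr11:119602905-119899576, plus strand) encodes the scaffold that presents substrates to the kinase. It stood at 5.79, 17.9 and 7.96 CPM after pup exposure, against 11.4, 12.9 and 5.47 CPM after control exposure. Pup exposure replicate 2 was the highest of the 6 libraries and control exposure replicate 3 the lowest, with the other 4 interleaved. Means of 10.6 ± 6.47 CPM after pup exposure and 9.92 ± 3.93 CPM after control exposure gave a log2 fold change of 0.09 (SE 0.539; edgeR adjusted p = 0.961), which was -0.53 without pup exposure replicate 2 and -0.22 without control exposure replicate 3.

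Rheb (chr5:24802823-24842624, minus strand), the GTPase that turns mTORC1 on, was the most abundant of the 10. Its level was 195, 78.7 and 155 CPM in the pup exposure libraries, against 159, 178 and 246 CPM in the control exposure libraries. The lowest library was pup exposure replicate 2 and the highest control exposure replicate 3, whereas for Rptor these same libraries were the highest and the lowest. The mean was 143 ± 59.3 CPM after pup exposure and 194 ± 45.6 CPM after control exposure, with a log2 fold change of -0.44 (SE 0.423; edgeR adjusted p = 0.698). Its value kept a negative sign when each library was left out in turn, between -0.73 and -0.13. Scaled by library totals only, Rheb was at 200, 109 and 151 CPM after pup exposure and 181, 187 and 149 CPM after control exposure. Control exposure replicate 3 was then no longer the highest library.

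The inhibitors differed from one another in level and in the spread of their values. Tsc1 (chr2:28641228-28691167, plus strand), which encodes hamartin, the protein that stabilises its TSC2 partner, was at 7.45, 8.75 and 3.21 CPM after pup exposure, against 4.55, 9.41 and 3.59 CPM after control exposure. Replicate 3 was low and replicate 2 high in each group. The groups had near-equal means, 6.47 ± 2.89 CPM after pup exposure and 5.85 ± 3.12 CPM after control exposure, and a log2 fold change of 0.14 (SE 0.596; edgeR adjusted p = 0.942), or -0.14 to 0.66 when single libraries were left out.

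Tsc2 (chr17:24595816-24632630, minus strand) encodes tuberin, the protein that makes RHEB hydrolyse its GTP. It had 295, 916 and 579 counts in the pup exposure libraries, which came to 15.8, 32.4 and 28.6 CPM, against 416, 959 and 321 counts or 32.6, 86.0 and 50.2 CPM in the control exposure libraries. Every pup exposure library was below every control exposure library, although the highest of the pup exposure libraries and the lowest of the control exposure libraries were nearly level. Means were 25.6 ± 8.71 CPM after pup exposure and 56.3 ± 27.2 CPM after control exposure, for a fold of 0.456 and a log2 fold change of -1.13 (SE 0.443, 95% interval -2.1 to -0.17). Its unadjusted p was 0.0254 and its edgeR adjusted p 0.424, with a range of 0.212 to 0.831 over the alternative settings, so the difference did not pass correction. Scaled by library totals only, the groups overlapped, at 16.2, 44.9 and 27.7 CPM after pup exposure and 37.0, 90.3 and 30.3 CPM after control exposure. Without control exposure replicate 2 the log2 fold change was -0.68.

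Within a library, Tsc2 exceeded Tsc1 everywhere. The ratio of Tsc2 to Tsc1 counts was 2.12, 3.71 and 8.91 in the pup exposure libraries and 7.17, 9.13 and 14.0 in the control exposure libraries. The groups overlap, since pup exposure replicate 3 lies between control exposure replicates 1 and 2. Per length of merged exons, Tsc2 made up 72.3%, 82.0% and 91.6% of the TSC pair after pup exposure and 89.8%, 91.8% and 94.5% after control exposure.

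The 5′ end of Tsc2 faces that of Nthl1, a DNA repair gene read in the opposite direction, and the stretch around the Tsc2 start is shown with the same stretch of its partner Tsc1 because Tsc2 and Tsc1 act as 1 complex. Sequences are 5′ to 3′ on each gene's strand from RefSeq promoter windows (GRCm38), at chr17:24632628-24632679 on the minus strand for Tsc2 and chr2:28641181-28641232 on the plus strand for Tsc1. Capitals mark CCGGAAG, the core of sites bound by ETS factors, searched on both strands.
Tsc2: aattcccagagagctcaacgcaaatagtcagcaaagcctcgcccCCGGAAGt
Tsc1: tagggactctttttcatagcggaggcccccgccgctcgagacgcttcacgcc
Of the 10 genes, 8 had a promoter window of 250 bases before to 50 bases after the start. CCGGAAG lay in the windows of Mtor and Tsc2 and in 8.86% of all 32851 windows; the E-box CACGTG lay in that of Rheb and in 7.15% of all windows. The cyclic AMP response element TGACGTCA, in 1.79% of all windows, matched none of these genes. Nthl1 was at 3.91, 1.98 and 2.82 CPM after pup exposure, against 5.41, 2.24 and 4.06 CPM after control exposure, with overlapping groups and a log2 fold change of -0.43 (SE 0.681; edgeR adjusted p = 0.828). At its other end Tsc2 shares 693 bases of exon, 7.2% of its exon length, with Pkd1 on the opposite strand. Whether the counting used strand is not given, so reads there cannot be assigned; Pkd1 was at 4.93, 33.9 and 11.7 CPM after pup exposure and 10.4, 11.6 and 11.3 CPM after control exposure, with pup exposure replicate 2 far above the rest.

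Rps6kb1 (chr11:86498871-86544805, minus strand) encodes S6K1, the S6 kinase best known as an mTORC1 target. Its level was 73.8, 50.5 and 48.9 CPM after pup exposure, against 57.4, 48.4 and 55.2 CPM after control exposure. Pup exposure replicate 1 was the highest, and the other 5 libraries lay close together. Means of 57.7 ± 14.0 CPM after pup exposure and 53.7 ± 4.67 CPM after control exposure gave a log2 fold change of 0.11 (SE 0.347, 95% interval -0.65 to 0.86; edgeR adjusted p = 0.922). That SE is the smallest of the 10 genes. The value was -0.11 without pup exposure replicate 1.

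Rps6kb2 (chr19:4153991-4163354, minus strand) encodes S6K2, the close relative of S6K1. It stood at 13.5, 10.4 and 14.7 CPM after pup exposure, against 15, 28.2 and 26.7 CPM after control exposure. All pup exposure libraries were below all control exposure libraries, with control exposure replicate 1 only just above pup exposure replicate 3. The means of 12.9 ± 2.19 CPM after pup exposure and 23.3 ± 7.26 CPM after control exposure gave a log2 fold change of -0.85 (SE 0.412, 95% interval -1.75 to 0.04), an unadjusted p of 0.0603 and an edgeR adjusted p of 0.466. Ptprcap, a gene of lymphocytes on the opposite strand, overlaps 23.7% of the exon length of Rps6kb2. It had 39 counts in the 6 libraries together, 0, 0 and 8 after pup exposure and 19, 7 and 5 after control exposure. Whether the counting used strand is not given, so reads in the shared stretch cannot be assigned to either gene.

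As a share of the S6 kinase pair per length, Rps6kb1 made up 76.5%, 74.3% and 66.5% after pup exposure, against 69.6%, 50.6% and 55.2% after control exposure. Control exposure replicate 1 lay among the pup exposure libraries, and the mean share was 72.4% ± 5.26 after pup exposure and 58.5% ± 9.91 after control exposure (SD, n = 3 each).

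Among the RSK kinases, Rps6ka1 (chr4:133847290-133887797, minus strand), which encodes RSK1, was the steadiest. Its level was 23.3, 21.6 and 15.9 CPM after pup exposure, against 24.7, 21 and 23.6 CPM after control exposure. Only pup exposure replicate 3 lay apart, below the other 5. With means of 20.3 ± 3.90 CPM after pup exposure and 23.1 ± 1.91 CPM after control exposure, the log2 fold change was -0.19 (SE 0.369; edgeR adjusted p = 0.865).

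Rps6ka3 (chrX:159210307-159368244, plus strand) encodes RSK2, the kinase whose loss causes Coffin-Lowry syndrome in humans. It had 131, 558 and 229 counts after pup exposure, or 7.02, 19.8 and 11.3 CPM, against 47, 76 and 22 counts, or 3.68, 6.81 and 3.44 CPM, after control exposure. Every pup exposure library was above every control exposure library, pup exposure replicate 1 by little. Means of 12.7 ± 6.48 CPM after pup exposure and 4.65 ± 1.88 CPM after control exposure came to a fold of 2.72 and a log2 fold change of 1.45 (SE 0.536, 95% interval 0.28 to 2.61). Its unadjusted p was 0.0195 and its edgeR adjusted p 0.424, with a range of 0.211 to 0.831 over the alternative settings, so the difference did not pass correction. Leaving out single libraries gave 0.99 (without pup exposure replicate 2) to 1.83 (without control exposure replicate 2).

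Rps6ka2 (chr17:7170115-7303315, plus strand), which encodes RSK3, was the scarcest of the 10. It had 1, 120 and 45 counts after pup exposure, or 0.0536, 4.25 and 2.22 CPM, against 30, 19 and 0 counts, or 2.35, 1.70 and 0 CPM, after control exposure. Near-empty libraries occurred in each group; in control exposure replicate 3, a count of 0 allows up to 0.469 CPM (3 counts, counting error only). Its log2 fold change of 0.66 had an SE of 1.35 and an edgeR adjusted p of 0.871. Of the 50-base words of its longest transcript, 34.5% also occur in transcripts of other genes, chiefly annotated Sod2 transcripts, and Sod2 was present at 75.2 to 128 CPM after pup exposure and 41.7 to 177 CPM after control exposure. Its count is therefore uncertain.

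Within the RSK trio, Rps6ka3 contributed 13.3%, 30.2% and 25.6% of the level per length after pup exposure, against 6.84%, 13.8% and 6.94% after control exposure. Control exposure replicate 2 lay just above pup exposure replicate 1, so the groups overlapped on this measure.

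**Figure D2:**
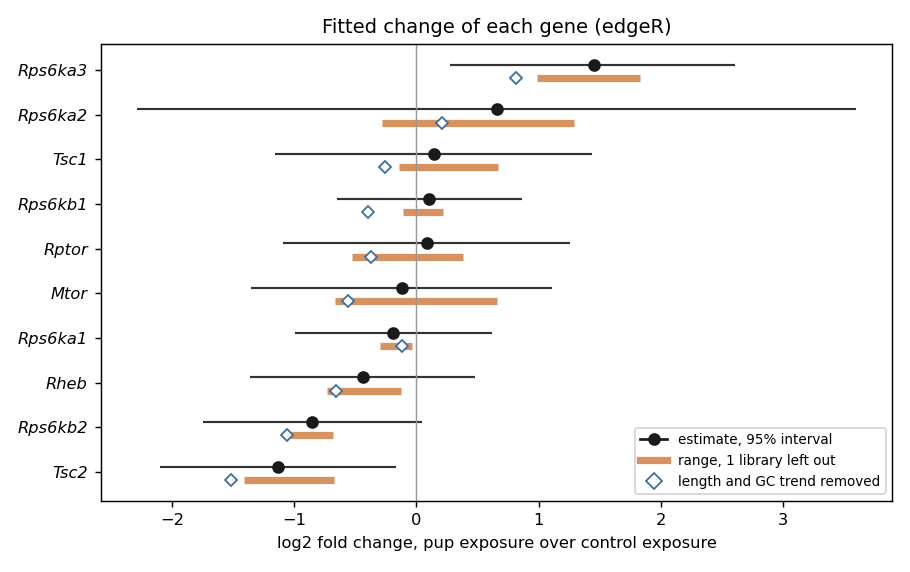
Log2 fold change of each gene, pup exposure over control exposure (horizontal axis), with the edgeR estimate and its 95% interval. Intervals for Tsc2 (-2.1 to -0.17) and Rps6ka3 (0.28 to 2.61) lie on one side of 0 before correction, and the other 8 span it.

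Levels were compared between genes as CPM per kilobase of merged exons. The order over the 6 libraries was Rheb (mean 21.9, range 10.2 to 31.8), Rps6kb1 (6.43), Rps6ka1 (5.09), Tsc2 (4.26), Rps6kb2 (3.50), Mtor (1.59), Rps6ka3 (1.04), Rptor (0.760), Tsc1 (0.521) and Rps6ka2 (0.177). Only Rheb stood clear of its neighbour in this order; every other adjacent pair had overlapping ranges. Rheb was above 88.8% of the tested genes and Rps6kb1 above 70.7%, whereas Mtor was above 35%, Rptor above 18% and Tsc1 above 11.8%. With the longest transcript as the length, Rptor and Rps6ka3 changed places and Rps6kb1 also stood clear of Rps6ka1.

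The genes also differed in how far libraries of 1 group lay apart. Rps6kb1 and Rps6ka1 had the smallest SD in control exposure libraries, 0.13 and 0.12 on the log2 CPM scale, against a median of 0.55 over all tested genes. In pup exposure libraries their SDs were 0.33 and 0.29, against a median of 0.59. Mtor, at 0.74 after pup exposure and 0.98 after control exposure, and Rps6ka2, at 2.45 and 2.38, spread more than the median gene in each group. So did Rptor, at 0.83 and 0.66, and Tsc1, at 0.76 and 0.71. By the root mean square difference of centred log2 CPM over the 6 libraries, the tested genes most like Mtor were Icam2 (0.24), Abca13 (0.25) and Raph1 (0.26), against 0.96 for the median gene. Those most like Rps6kb1 were Ttc33 (0.07), Rora (0.10) and Sept10 (0.10), against a median of 0.66. The nearest of the other 9 members was Tsc1 for Mtor (0.47) and Rps6ka1 for Rps6kb1 (0.20). With 6 libraries and 15498 genes to choose from, small differences of this kind are a description only.

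The fold changes of all genes moved with transcript length. Across 15308 tested genes with an annotated transcript, which are not independent replicates, Spearman's rho between the log2 fold change and the length of the longest transcript was 0.453. The median log2 fold change was -0.45 in the shortest decile of genes and 0.51 in the longest. Pup exposure replicate 2 had the lowest centre for the shortest decile, -0.78, and the highest for the longest, 0.70. In control exposure replicate 3 the shortest decile was the highest of the 6 libraries, at 0.87, and the longest lay at -0.24, near the -0.28 of control exposure replicate 1. The 10 genes have long transcripts, 3135 to 8564 bases, and among the 7143 genes in that range the median was 0.37, with 10.8% at an unadjusted p under 0.05 and higher after pup exposure and 2.39% lower. Against the median of their own decile of length, 8 of the 10 lay below and 2, Rps6ka2 and Rps6ka3, above.

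Removing the trend of length and GC content from each library left Tsc2 at -1.52 (unadjusted p = 0.00221, edgeR adjusted p = 0.36) and Rps6kb2 at -1.06 (unadjusted p = 0.0329, edgeR adjusted p = 0.616). Rps6ka3 was then at 0.82 (unadjusted p = 0.112). The median of the 10 genes was -0.39 after removal, Mtor was at -0.56, Rptor at -0.37, Tsc1 at -0.26 and Rps6kb1 at -0.40, and none of the 10 passed correction. Under this alternative, which was chosen after seeing the data, 6 genes of the whole table or 0.0387% passed.

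**Figure D3:**
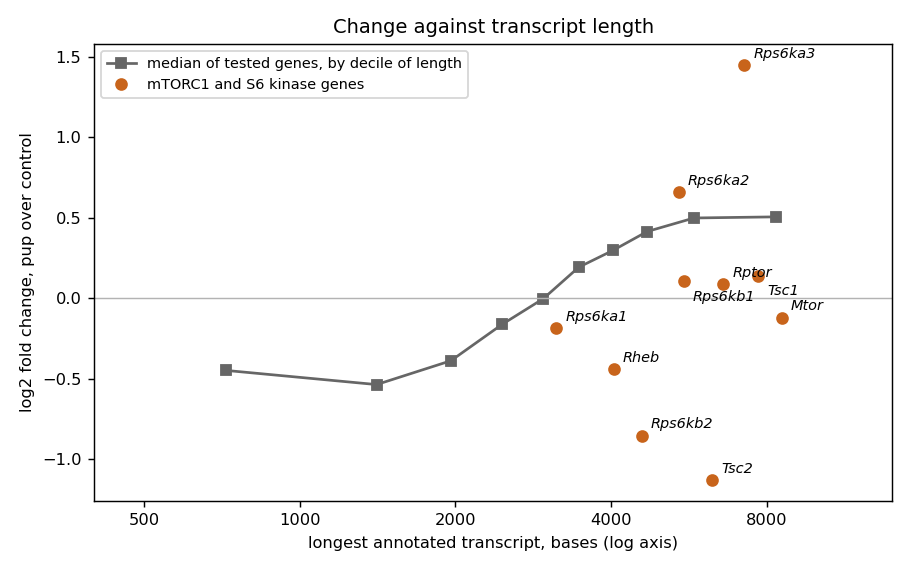
Log2 fold change, pup exposure over control exposure (vertical axis), against the length of the longest annotated transcript in bases (log axis); squares are medians of tested genes in deciles of length, and orange points are the 10 genes. Medians run between -0.54 in the second decile and 0.51 in the longest, and 8 of the 10 genes lie below the median of their decile.

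Outside the 10, another 110 genes of the pathway were taken from 9 lists, and 108 of them were tested. These lists were also written with earlier results of these data known. None passed edgeR's correction. At an unadjusted p under 0.05, 16 (14.8%) lay higher after pup exposure and 7 (6.48%) lower, against 6.31% and 4.67% of all genes. The median log2 fold change of the 108 was 0.24. Of these 16, only Seh1l, Braf and Tmem127 stayed under 0.05 with the length and GC trend removed (edgeR unadjusted p = 0.0158, 0.022 and 0.00891). Of the 7, Rhebl1 and Ppp1ca did not stay under it (0.149 and 0.141). Over all 15498 tested genes, 514 were higher and 664 lower at that p in this fit. Transcript length differed between the lists: the 2 relatives of TSC and Rheb, with a median length of 2114 bases, had a median of -1.13, and the 21 PI3K, AKT and energy genes, at 4906 bases, a median of 0.38. With the trend removed these medians were -0.90 and 0.16. How far length accounts for the lists' values beyond this was not tested.

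Near the TSC complex, Tbc1d7, which encodes its smaller core subunit, was at 13.5, 19.1 and 26.8 CPM after pup exposure, against 42.7, 35.5 and 46.3 CPM after control exposure. The groups did not overlap, and 9.6% of all tested genes were lower in the same way. The log2 fold change was -1.07 (SE 0.38, edgeR adjusted p = 0.424), or -1.03 with the length and GC trend removed. Its value was close to the -1.13 of Tsc2, while Tsc1 was at 0.14. Rhebl1, a relative of Rheb, was at 2.95, 4.25 and 3.46 CPM after pup exposure, against 6.51, 7.53 and 10.5 CPM after control exposure, with a log2 fold change of -1.19 (SE 0.525; edgeR adjusted p = 0.447), or -0.77 with the trend removed.

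Of 12 other mTOR complex subunits and assembly factors, 1 higher and 1 lower gene had an unadjusted p under 0.05, and the median was -0.004. Over all tested genes, 6.31% were higher and 4.67% lower at that p. Rictor, the scaffold that defines mTORC2, was at 11, 22.3 and 7.17 CPM after pup exposure, against 6.19, 5.65 and 5.94 CPM after control exposure (log2 fold change 1.19, SE 0.506). Its value was 0.63 without pup exposure replicate 2 and 0.53 with the length and GC trend removed. Ruvbl2, an ATPase that helps assemble the complex, was at 17.3, 14.3 and 23.1 CPM after pup exposure, against 49.5, 36.4 and 31.7 CPM after control exposure (log2 fold change -1.11, SE 0.376). Neither pair of groups overlapped, which held for 19.8% of all tested genes. Of 29 genes for lysosomal amino acid sensing, 5 higher and 2 lower genes had an unadjusted p under 0.05, with a median of -0.03. Seh1l, a subunit of the GATOR2 complex that also sits in the nuclear pore, had a log2 fold change of 1.14 (SE 0.349). Its complex partner Sec13 had -1.15 (SE 0.367), and the lysosomal Rag anchor Lamtor1 had -1.13 (SE 0.381). Seh1l and Sec13, both of GATOR2, thus had values of opposite sign.

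The ERK cascade, which activates the RSK kinases, had 4 of 12 genes at an unadjusted p under 0.05, all higher after pup exposure. The share higher at that p was 6.31% over all tested genes and 10.8% over genes in the length range of the 10. The cascade's median was 0.36 (0.18 with the length and GC trend removed). Braf, the kinase at its top, was at 87.5, 203 and 74.2 CPM after pup exposure, against 45.9, 40.3 and 36.4 CPM after control exposure. All pup exposure libraries lay above all control exposure libraries, replicate 2 by the most. The log2 fold change was 1.57 (SE 0.441; edgeR adjusted p = 0.395), and Braf passed only when genes of low count were not filtered out (edgeR adjusted p = 0.0446; the range over all alternatives was 0.0446 to 0.831). Its log2 fold change was 0.998 without pup exposure replicate 2 and 0.92 with the length and GC trend removed. Sos2, a guanine nucleotide exchange factor, had 1.38 (SE 0.516), or 0.86 with the trend removed. Among other kinases of the RSK and S6 kinase families, 1 of 5 was higher at that p, Rps6kc1 with 1.48 (SE 0.595).

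Of the 21 tested PI3K, AKT and energy genes, 3 had an unadjusted p under 0.05, all higher after pup exposure. Over all tested genes, 6.31% were higher and 4.67% lower at that p. Over genes in the length range of the 10, 10.8% were higher and 2.39% lower. The 3 genes were Prkab2 (1.74, SE 0.676), Prkaa1 (1.02, SE 0.435) and Igf1r (1.12, SE 0.469). Prkab2 and Prkaa1 encode subunits of the AMP-activated kinase that restrains mTORC1, and Igf1r a growth factor receptor. With the length and GC trend removed, their edgeR unadjusted p was 0.067, 0.171 and 0.158. Prkab2 was at 0.63 without pup exposure replicate 1, and Igf1r at 0.61 without pup exposure replicate 2 and 0.60 with the length and GC trend removed; the groups of both genes overlapped. Prkaa1 was at 0.55 with the trend removed. Of the 14 tested substrates of mTORC1 and S6 kinase, 1 was higher, Larp1, which binds mRNAs of ribosomal proteins (1.14, SE 0.462). Larp1 was at 0.50 without pup exposure replicate 2 and 0.61 with the trend removed. Eif4b, an S6 kinase substrate in translation initiation, had 0.63 (SE 0.358). Of 7 phosphatase genes 1 was lower, Ppp1ca (-0.94, SE 0.368), while Ppp1cb, another catalytic subunit of protein phosphatase 1, had 0.46 (SE 0.399). With the trend removed these were -0.50 and -0.06.

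Pld1, which encodes a phospholipase D that makes phosphatidic acid, a lipid that activates mTORC1, had the smallest p of all the genes in these lists. It was at 1.29, 4.25 and 4.45 CPM after pup exposure, against 30.4, 28.9 and 17.8 CPM after control exposure. The groups lay far apart. The log2 fold change was -2.94 (SE 0.541, unadjusted p = 0.000154). The edgeR adjusted p was 0.199, so Pld1 did not pass here; it passed with DESeq2 (adjusted p = 3.47e-05) and in edgeR without the filter (adjusted p = 8.4e-05), and was at 0.0581 with the length and GC trend removed. The range over all alternatives was 3.47e-05 to 0.831. In the list that holds Pld1, 1 of 6 genes was lower and 1 higher at an unadjusted p under 0.05. Over all tested genes, 4.67% were lower and 6.31% higher at that p. The higher gene, Tmem127, had a log2 fold change of 1.31 (SE 0.399, edgeR adjusted p = 0.4), or 1.0 with the trend removed.

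**Figure D4:**
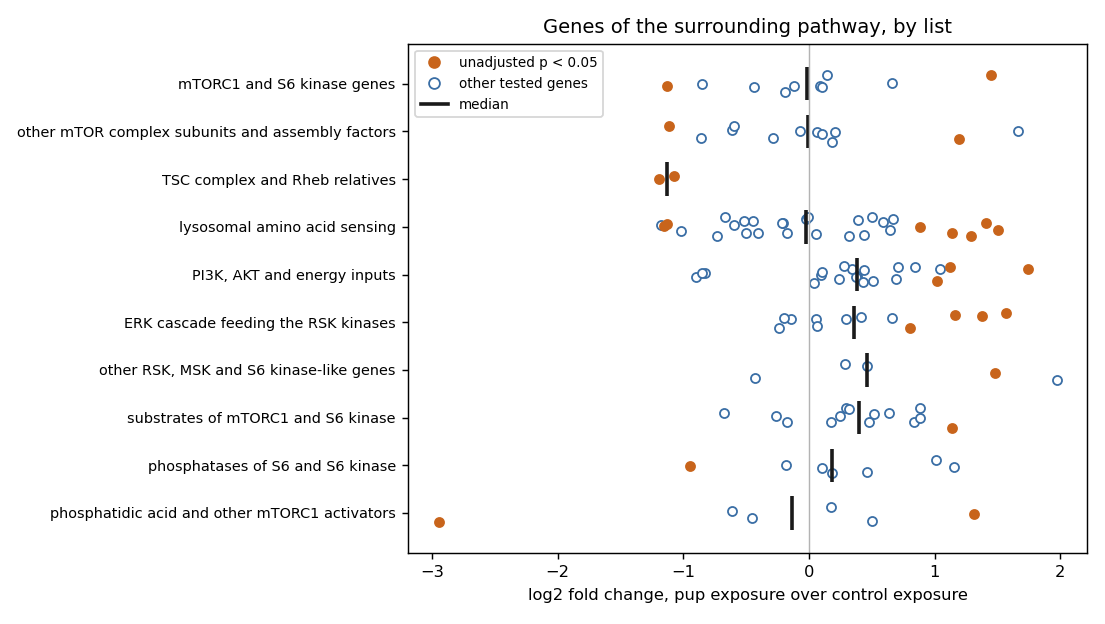
Log2 fold change, pup exposure over control exposure (horizontal axis), of the tested genes of each pathway list (rows); filled points have an unadjusted p under 0.05 and black bars are medians. The TSC relatives (median -1.13) lie left of 0, the ERK cascade (0.36) mostly right of it, and Pld1 (-2.94) stands far to the left.

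Rps6, which encodes the protein that the antibody recognises, was itself scarce in the table, at 2.47, 0.921 and 1.14 CPM after pup exposure and 1.41, 0.986 and 1.41 CPM after control exposure. Of its 50-base words, 55.1% occur in transcripts of other genes, chiefly processed copies, so its count is uncertain. Its values overlapped between groups (edgeR adjusted p = 0.934).

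Summed markers of other cells of the organ differed between the libraries. None of the marker lists had a gene past edgeR's correction, but 5 marker genes, singled out after their values were seen, passed under at least 1 alternative. Their lowest adjusted p over the alternatives was 6.16e-07 for S1pr1 (endothelial), 0.000619 for Cyp2g1 and 0.0338 for Cbr2 (sustentacular), 0.0167 for Cd68 (immune) and 0.0306 for Hbb-bs (red blood cells). Their highest was 0.803 to 0.971. Over the whole table, 120 genes passed in edgeR without the filter and 127 with DESeq2. The share of all genes that passed under at least 1 alternative was not worked out, so these 5 cannot be set against it. Sustentacular cell markers, 6 of 7 tested, summed to 1561 to 2286 CPM after pup exposure and 3869 to 4485 CPM after control exposure. Their median log2 fold change was -0.67, or -0.295 with the length and GC trend removed. At an unadjusted p under 0.05, 2 genes were lower, against 4.67% of all tested genes. Gland markers, 8 of 8 tested, summed to 190766 to 462248 CPM after pup exposure and 280058 to 908330 CPM after control exposure. The sum was lowest in pup exposure replicate 2 and highest in control exposure replicate 3, also the extremes for Rheb. These libraries had the highest and lowest TMM factors, and with library totals only Rheb was highest in pup exposure replicate 1. The gland median was -0.605, or -0.304 with the length and GC trend removed. Red blood cell markers, 4 of 5 tested, summed to 52.6 to 168 CPM after pup exposure and 205 to 591 CPM after control exposure. Their median was -1.5, or -1.11 with the trend removed. Immune markers, 10 of 10 tested, summed to 437 to 1455 CPM after pup exposure and 718 to 1845 CPM after control exposure. Their median was -0.353, or -0.0889 with the trend removed. Markers of mature vomeronasal neurons, 7 of 8 tested, summed to 1344 to 1620 CPM after pup exposure and 1460 to 1545 CPM after control exposure. These ranges overlapped, but the median of the list was 0.575, or 0.42 with the trend removed. Of the 7 genes, 5 had positive and 2 negative values. For 2 genes all pup exposure libraries were above all control exposure libraries, against 10.1% of all tested genes. Progenitor and immature neuron markers, 6 of 8 tested, summed to 93.8 to 177 CPM after pup exposure and 186 to 248.7 CPM after control exposure. Most of that sum was Gap43 (-1.22) and Stmn2 (-0.76). Of the tested genes in the list, 4 had negative values and 2, Dcx (0.43) and Top2a (0.29), positive ones. The median was -0.387, or -0.53 with the trend removed. Endothelial markers, 7 of 7 tested, summed to 37.0 to 51.3 CPM after pup exposure and 71.7 to 93.3 CPM after control exposure. That sum rests on S1pr1, at 11.5 to 17 CPM after pup exposure and 63.4 to 71.3 CPM after control exposure; the other 6 genes had positive values, and the median of the list was 0.53. The sums of smooth muscle, glial and neutrophil markers overlapped between groups, and the neutrophil gene Elane had no count in any library. The part of these cells in the values of Tsc2, Rps6kb2 and Rps6ka3 was not tested.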

How the data were processed

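Per the labels' protocols, lysates of vomeronasal organs were precipitated with an antibody to phosphorylated S6, and cDNA was made with a low-input kit and sheared. The authors deposited raw counts, whole numbers for each Ensembl gene in each library. Per the submitters' processing notes the genome was GRCm38. The aligner, the counter and its use of strand: not given in the sources used here. Genes were named from GENCODE M21.

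Counts were tested with edgeR 4.0.16 in R 4.3.3 (quasi-likelihood, group only). filterByExpr used a minimum count of 10 and total of 15; scaling was by TMM. Benjamini-Hochberg adjustment ran over 15498 genes, with a threshold of 0.05. Intervals are 95%. The fit was tested on simulated data. Replicates of a group differed far beyond sampling noise.

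Members and lists were chosen with earlier results of these data known. Named are the members, Rps6, at most 4 genes of each list (smallest p), the 3 genes most like Mtor and Rps6kb1, cell markers, and genes that overlap a member or share its sequence; Nthl1 was added as the neighbour of Tsc2. Not every gene the rule allows is named.

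Alternatives were scaling by RLE, by upper quartile or by totals alone, no filter or a stricter one (1 CPM in 3 libraries, 50 counts), DESeq2 1.42.0, limma-voom (limma 3.58.1) with and without quality weights, a replicate block, leaving out each library, and thinning. Removal of the length and GC trend (splines, 4 degrees of freedom) and longest-transcript lengths were added after seeing the data. Same-numbered libraries were not treated as pairs.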

Additional observations from a re-analysis of the deposited data

How the results depend on the processing

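None of the 10 genes passed the threshold under any of the 17 alternatives. Over all genes, 0 passed in the edgeR fit, against 120 with no filter, 127 with DESeq2, 8 with limma-voom, 12 with limma-voom and quality weights, and 6 with the length and GC trend removed; leaving out single libraries gave 0. Genes at an unadjusted p under 0.05 numbered 978 higher and 723 lower, against 1336 and 168 with library totals only, 463 and 400 without pup exposure replicate 2, 666 and 467 without control exposure replicate 1, and 514 and 664 with the trend removed. The median of the 10 genes was -0.384 with quality weights and -0.386 with the trend removed, and -0.251 to 0.17 when libraries were left out. Library totals only, which shifted the median of all genes to 0.313, gave list medians of 0.292 (the 10 genes), 0.2 (other mTOR subunits), -0.799 (TSC relatives), 0.719 (PI3K, AKT and energy), 0.684 (ERK cascade), 0.688 (substrates) and 0.514 (phosphatases). The mTOR subunit median was -0.224 with the trend removed and -0.227 to 0.132 over left-out libraries; that of the ERK cascade was 0.254 to 0.61 and that of the substrates 0.264 to 0.688. With no filter 1 ERK gene (Braf, log2 fold change 1.61) and 1 activator gene (Pld1, -2.91) passed, and with DESeq2 1 activator gene (Pld1, -2.99).

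Signs of small changes turned. Mtor was 0.214 with library totals, 0.000141 with limma-voom and -0.667 to 0.662 over left-out libraries. Rptor was -0.0356 with limma-voom, -0.182 with quality weights, -0.374 with the trend removed and -0.525 to 0.378 over left-out libraries. Tsc1 was -0.572, -0.257 and -0.139 to 0.664 under quality weights, trend removal and left-out libraries. Rps6kb1 was -0.398 with the trend removed and -0.11 to 0.215 over left-out libraries, Rps6ka1 0.105 with library totals, and Ppp1cb -0.06 with the trend removed. Over left-out libraries Rps6ka2 was -0.284 to 1.29, Rps6 -0.296 to 0.527 and Pkd1 -0.408 to 1.04. The causes were not tested.

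Deviations from the group mean correlated at -0.035, 0.179 and 0.0745 between same-numbered libraries. Differently numbered libraries gave -0.256 to 0.139. With 3 libraries per group, these values cannot tell whether same-numbered libraries shared a day or a batch. With the replicate block 0 genes passed over all genes and 0 of the 10. Rps6ka2 had 0 to 120 counts per library, and these did not follow library totals. It had 1 count in pup exposure replicate 1 (total 18199476) and 30 in control exposure replicate 1 (total 11240065). The cause was not tested.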
